A study of Mus musculus with 10 samples.

Results

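The transcripts described are those of 7 genes used to mark stem and progenitor compartments of the mouse hair follicle: Lgr5, Lgr6, Lrig1, Plet1, Krt79, Cd34 and Epcam. They were chosen by name, and each matched 1 of the 49671 genes in the table. All 7 passed the filter on low values and entered a test over 21995 genes. They were measured by bulk RNA sequencing in skin epidermal cells sorted by FACS for SmoM2-YFP, an oncogenic form of the Hedgehog transducer Smoothened that drives basal cell carcinoma in mice. The study asked what Survivin, the product of Birc5, does in the formation of this tumour.

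There were 5 groups of 2 libraries, and every group expressed SmoM2 from the Rosa locus. LOF cells carried Krt14-CREER with Survivin LOF (loss of function) and were taken 6 weeks after TAM, read here as tamoxifen, which activates CreER. GOF cells carried Inv-CREER, Krt14rtTA and Survivin-GOF (gain of function) and were taken at 8 weeks. Krt14 cells, with Krt14-CREER alone, were taken at 8 weeks and at 6 weeks, and Inv cells, with Inv-CREER alone, at 8 weeks. The Krt14 promoter is active in basal keratinocytes of epidermis and follicle, and the Involucrin promoter in differentiating ones. The labels give no age of the mice, name both Inv libraries as pools, and do not give Krt14rtTA for Inv cells, so that Krt14rtTA and Survivin gain cannot be told apart.

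The hair follicle is built in storeys, each with its own resident progenitors. Lgr5 and Cd34 mark the lower storeys, Lgr5 the bulge and hair germ and Cd34 the bulge. Lgr6 and Plet1 mark the isthmus, Lrig1 the junctional zone where the sebaceous gland joins, and Krt79 the cells that line the upper canal. Lgr5 and Lgr6 encode receptors for R-spondins, secreted proteins that raise Wnt signalling. Lrig1 encodes a membrane protein that restrains ErbB growth factor receptors, Plet1 a lipid-anchored surface protein, Krt79 a type II keratin, Cd34 a sialomucin and Epcam a homophilic adhesion protein. Krt79 is thus a cytoskeletal and not a surface protein. Outside epithelium, Cd34 is also made by endothelial and blood-forming cells.

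The promoters of the 3 markers that were lower in LOF than in Krt14 cells are shown because they moved together in that comparison. Each line gives the 250 bases before the RefSeq start, on the gene's strand, in GRCm38.p6: Krt79 at chr15:101940325-101940574 on the minus strand, Plet1 at chr9:50494275-50494524 on the plus strand and Epcam at chr17:87635729-87635978 on the plus strand. Capitals mark letters that matched a searched motif.
Krt79: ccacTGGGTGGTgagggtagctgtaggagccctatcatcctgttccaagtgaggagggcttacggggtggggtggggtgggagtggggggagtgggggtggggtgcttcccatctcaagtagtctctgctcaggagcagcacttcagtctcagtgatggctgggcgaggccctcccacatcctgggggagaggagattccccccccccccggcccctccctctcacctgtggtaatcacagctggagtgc
Plet1: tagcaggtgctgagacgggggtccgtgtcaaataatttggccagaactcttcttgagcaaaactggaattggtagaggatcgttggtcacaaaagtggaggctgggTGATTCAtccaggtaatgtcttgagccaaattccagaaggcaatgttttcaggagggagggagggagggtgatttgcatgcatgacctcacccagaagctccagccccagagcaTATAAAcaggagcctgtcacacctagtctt
Epcam: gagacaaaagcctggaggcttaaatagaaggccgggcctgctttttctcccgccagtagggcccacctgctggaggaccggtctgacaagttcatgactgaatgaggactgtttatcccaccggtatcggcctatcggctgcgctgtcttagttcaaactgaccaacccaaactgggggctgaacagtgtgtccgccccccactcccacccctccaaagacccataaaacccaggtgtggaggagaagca
The letters searched on both strands were GACCACCCA for GLI factors, the same without its first base (ACCACCCA), CTTTGAT for TCF/LEF, TGANTCA for AP-1, AGATAA for GATA factors and TATAAA for a TATA box. The only match in Krt79 was the 8-letter GLI form on the opposite strand, 239 to 246 bases before the start, a form held by 1.28% of 32851 such windows. Plet1 held an AP-1 match 138 to 144 bases and a TATA box 25 to 30 bases before its start, forms held by 6.75% and 12.4% of windows. Epcam held none of the letters, and so did the windows of Lgr6, Lrig1 and Cd34. Of the 7 genes, 6 had an entry, and Lgr5 is named only. A match is a run of letters and was not tested as a binding site.

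The libraries held between 7693153 and 8870758 reads recovered from the normalized counts, in which 1 read was worth 2.2546 to 2.5997 and 3 reads, taken as the floor, 6.76 to 7.80. Birc5 was at 382 and 429 normalized counts in LOF cells and 7277 and 16384 in GOF cells, against 1005 and 926 in Krt14 cells at 8 weeks, 961 and 1103 at 6 weeks, and 237 and 265 in Inv cells. Epidermal keratins were abundant in all 10 libraries, Krt14 itself at 47388 or more and Krt5 at 61520 or more. The GOF libraries stood farthest apart as a pair, with a chi-square per degree of freedom of 21.5 against 2.65 to 6.85 in the other pairs. The X-inactivation transcript Xist reached 30024 and 59594 in LOF and 7589 and 56185 in GOF libraries, against 51 to 194 in the other 6 libraries. The Y-linked Ddx3y was present in all 10, at 1336 and 956 in LOF libraries, 3328 and 970 in GOF libraries and 2289 to 2909 elsewhere. Xist was thus high only where Survivin was altered. In comparisons of LOF or GOF with other cells, the sex of the cells and the Survivin state cannot be told apart. In bulk samples, fewer cells of a type and less RNA per cell cannot be told apart.

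Lgr5 (chromosome 10, 115450311 to 115587780, minus strand) was highest in LOF cells, at 5000 and 5292 normalized counts. It stood at 1862 and 1734 in GOF cells, 4054 and 3902 in Krt14 cells at 8 weeks, 3951 and 2666 in Krt14 cells at 6 weeks and 3017 and 3198 in Inv cells. Both LOF libraries lay above all others and both GOF libraries below all others, while the Krt14 groups overlapped each other and the 6-week libraries overlapped Inv. The means of the highest and lowest group differed 2.86-fold.

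Lgr6 (chromosome 1, 134983301 to 135105276, minus strand) had another order. It measured 4465 and 3335 in LOF cells, 3237 and 5044 in GOF cells, 7112 and 6564 in Krt14 cells at 8 weeks, 5405 and 5057 in Krt14 cells at 6 weeks and 1602 and 1482 in Inv cells. Both Inv libraries lay below all others, both Krt14 groups above, and LOF and GOF overlapped in between. The group means spanned 4.43-fold.

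Lrig1 (chromosome 6, 94604529 to 94700158, minus strand) stood out in 1 group. Its values were 4527 and 4555 in LOF, 3360 and 4157 in GOF, 8757 and 8589 in Krt14 cells at 8 weeks, 4240 and 3990 in Krt14 cells at 6 weeks and 3755 and 3627 in Inv. Both Krt14 libraries at 8 weeks lay above the remaining 8 libraries, which ran from 3360 to 4555. Among the other 4 groups, GOF overlapped Krt14 at 6 weeks and Inv, and the group means of all 5 spanned 2.35-fold.

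Plet1 (chromosome 9, 50494525 to 50505482, plus strand) measured 1210 and 1078 in LOF cells, 1123 and 1659 in GOF cells, 2369 and 2520 in Krt14 cells at 8 weeks, 3359 and 4220 at 6 weeks and 735 and 662 in Inv cells. It was highest in Krt14 cells at 6 weeks and lowest in Inv cells. LOF and GOF overlapped, and no other neighbours in this order did. The antisense gene Plet1os spans Plet1, and the strand setting of the counting is not given in the sources used here, so reads of the pair cannot be told apart. Plet1os followed it, at 437 and 422 in LOF, 342 and 596 in GOF, 882 and 911 in Krt14 at 8 weeks, 1221 and 1615 at 6 weeks and 299 and 287 in Inv.

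Krt79 (chromosome 15, 101929332 to 101940324, minus strand) had the widest range of the 6 markers other than Cd34, its group means spanning 10.0-fold. It measured 7275 and 5049 in LOF cells, 2924 and 3224 in GOF cells, 32603 and 29132 in Krt14 cells at 8 weeks, 21728 and 18152 at 6 weeks and 12521 and 11972 in Inv cells. No 2 groups overlapped, with GOF lowest and Krt14 at 8 weeks highest.

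Epcam (chromosome 17, 87635979 to 87651129, plus strand) measured 3249 and 3049 in LOF cells, 1462 and 2033 in GOF cells, 4822 and 4733 in Krt14 cells at 8 weeks, 5190 and 5620 at 6 weeks and 1789 and 1685 in Inv cells. The order ran from Krt14 at 6 weeks through Krt14 at 8 weeks and LOF down to GOF and Inv, and only GOF and Inv overlapped. The span of the group means was 3.11-fold.

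Cd34 (chromosome 1, 194938819 to 194961279, plus strand), the classical bulge surface marker, was the lowest of the 7 per kilobase in each group. Its values were 3 and 12 in LOF, 20 and 52 in GOF, 7 and 21 in Krt14 at 8 weeks, 0 and 16 at 6 weeks and 7 and 19 in Inv, from 0 to 20 reads a library. Both GOF libraries were above their floors of 7.21 and 7.8, and in each other group at least 1 library was above its floor. Neighbouring groups in the order of means all overlapped, GOF and Inv did not, and it passed no test in any comparison (adjusted p from 0.448 to 0.978 with limma). The highest library, GOF replicate 2, also had the highest endothelial transcripts. In it Kdr, the receptor for VEGF, was at 294, Cdh5 at 221, Cldn5 at 276, Emcn at 242 and Tie1 at 102, against at most 49 for each of these genes in any other library. The 7 endothelial markers summed to 78 and 94 in LOF, 328 and 1479 in GOF, 200 and 213 in Krt14 at 8 weeks, 142 and 195 at 6 weeks and 258 and 290 in Inv, and Esam was never above the floor. Of the 6 endothelial genes tested, 0 passed in GOF against Inv (median 1.69), where 15.3% of all genes changed. In GOF against Krt14 at 8 weeks 3 rose (Kdr, Cldn5 and Emcn, median 3.37), where 15.2% of all genes were higher. The part of such cells in the Cd34 values was not tested.

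**Figure D1:**
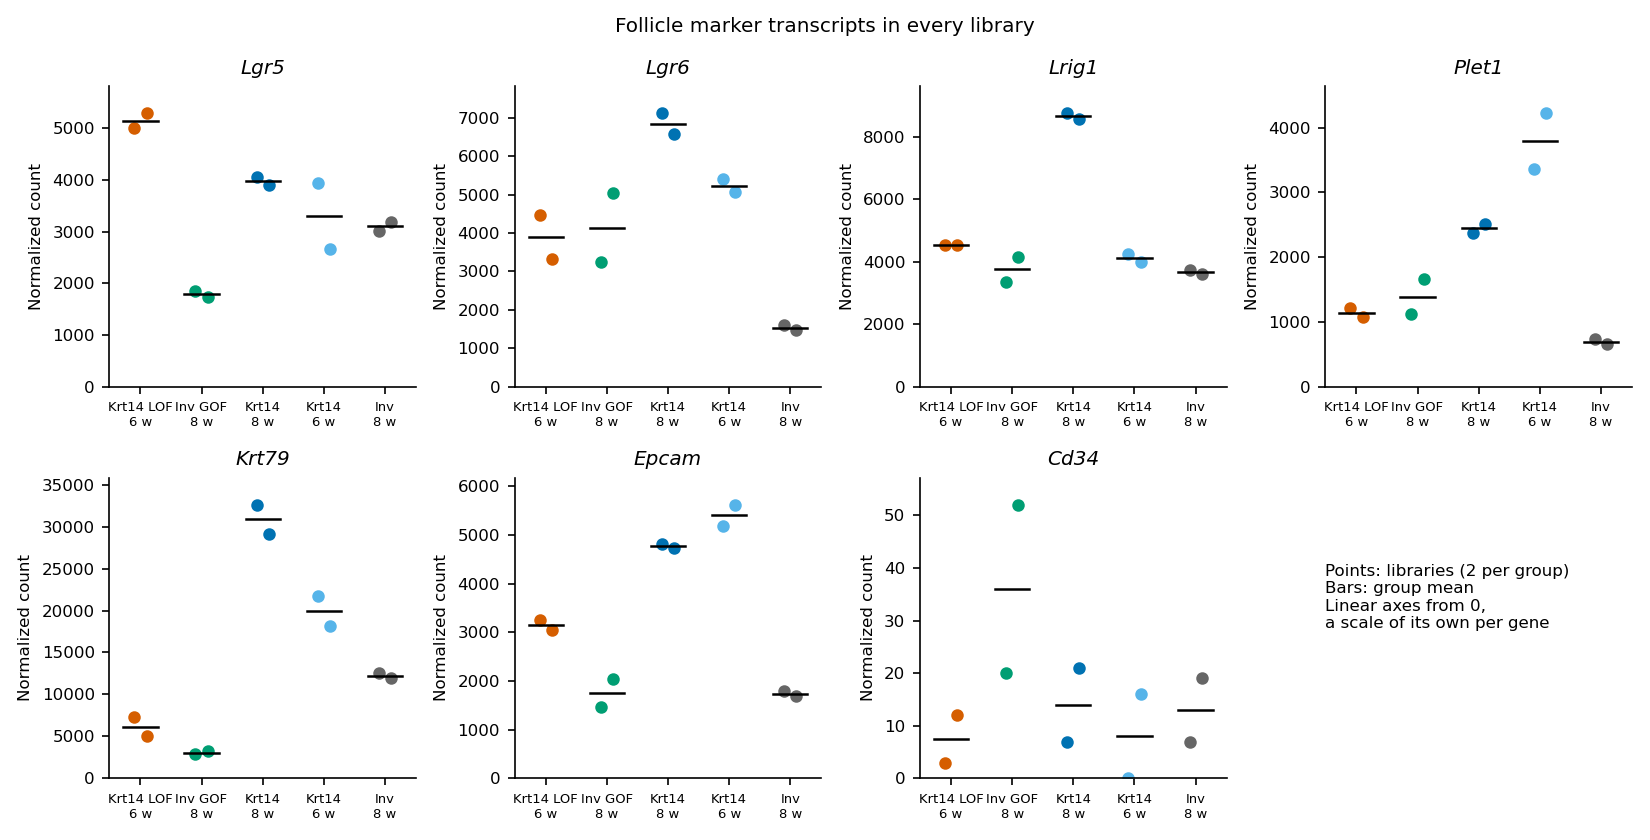
Normalized counts (vertical axis, linear from 0, a scale of its own for each gene) of the 7 markers in the 5 groups; points are libraries, 2 per group, and bars the group means. Lgr5 is highest in LOF at 5000 and 5292 and lowest in GOF, Lrig1 is high only in Krt14 cells at 8 weeks at 8757 and 8589, and Cd34 stays at 52 or less.

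**Figure D2:**
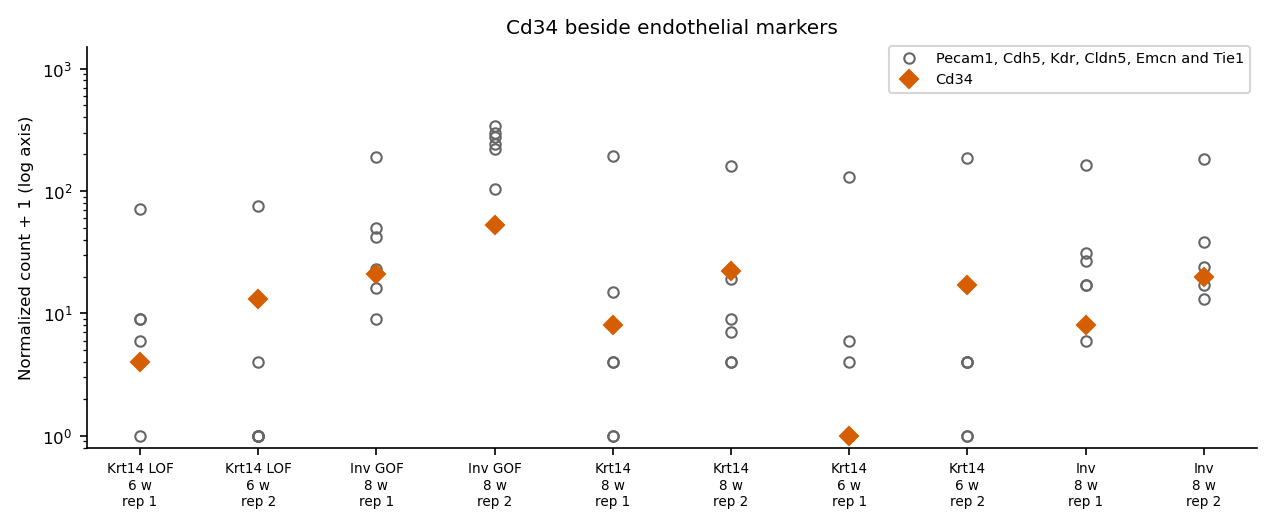
Normalized count plus 1 (log axis) of Cd34 (diamonds) and 6 endothelial markers (open circles) in each of the 10 libraries. Replicate 2 of GOF, where Cd34 is at 52, holds the highest values of the 6 endothelial markers, and Pecam1 lies above the other markers elsewhere.

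Values were also divided by the length of all annotated exons of a gene, which can exceed that of the transcript made. Rankings of different genes on this scale are therefore approximate. Per kilobase, Epcam (1435 ± 64.4, SD, n = 2) and Krt79 (1296 ± 331) led in LOF cells and were level within their spread. In GOF cells Epcam (796 ± 184), Plet1 (714 ± 195), Lrig1 (673 ± 101), Krt79 (647 ± 44.6) and Lgr6 (604 ± 187) all lay within their spread, and Lgr5 (175 ± 8.82) lay below them. Krt79 was the most abundant marker in Krt14 cells at 8 weeks (6494 ± 516) and at 6 weeks (4195 ± 532) and in Inv cells (2577 ± 81.7). Cd34 was at 4.94 ± 3.10 or less per kilobase in every group.

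The balance of the receptor pair differed between libraries. Within a library, the per-kilobase level of Lgr6 over that of Lgr5 was 1.34 and 0.944 in LOF, against 2.05 and 2.84 in Krt14 cells at 6 weeks. It was 2.6 and 4.36 in GOF, against 0.796 and 0.694 in Inv, and 2.63 and 2.52 in Krt14 cells at 8 weeks. The Lgr6 to Lgr5 ratio was thus 0.694 to 1.34 in LOF and Inv libraries and at least 2.05 in the other 6. Its absolute size depends on the exon lengths used. The same lengths apply to every library, so the order of libraries does not depend on them. The ratio of Krt79 to Plet1 was 2.46 and 1.92 in LOF, against 2.65 and 1.76 in Krt14 at 6 weeks. It was 1.07 and 0.796 in GOF, against 6.98 and 7.41 in Inv, and 5.64 and 4.74 in Krt14 at 8 weeks. With 2 libraries a group an exact permutation test of such a ratio cannot go below p = 0.333, so the ratios are given as values.

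**Figure D3:**
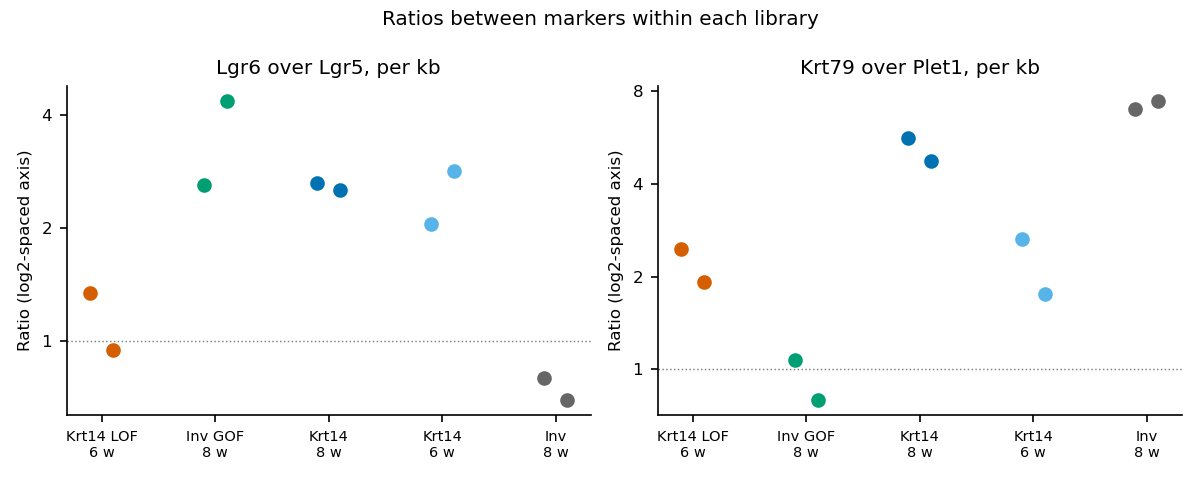
Ratio of the per-kilobase levels of Lgr6 to Lgr5 (left) and of Krt79 to Plet1 (right) in each library, on a log2-spaced axis, with a dotted line at 1. The Lgr6 to Lgr5 ratio lies between 0.694 and 1.34 in LOF and Inv and at 2.05 or more elsewhere, and the Krt79 to Plet1 ratio is lowest in GOF and highest in Inv.

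With Survivin loss, LOF against Krt14 cells at 6 weeks, Plet1, Krt79 and Epcam fell and Lgr5 rose. Plet1 was 3.31-fold and Krt79 3.24-fold lower, Epcam 1.72-fold lower and Lgr5 1.56-fold higher. Of the 7 markers, 1 rose and 3 fell, in a comparison that called 30.9% of all genes tested, 19.5% higher and 11.4% lower. The log2 changes were -1.72 for Plet1 (SE 0.17, adjusted p = 5.31e-05), -1.71 for Krt79 (SE 0.15, adjusted p = 2.64e-05), -0.78 for Epcam (SE 0.14, adjusted p = 0.00162) and 0.66 for Lgr5 (SE 0.15, adjusted p = 0.00689), all with limma and n = 2 libraries a group, on the scale of log2(value + 1). Plet1os fell with Plet1, by 1.71 on the log2 scale (SE 0.22). For each of the 4, both libraries of LOF lay on the same side of both controls.

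Lgr6 and Lrig1 did not pass with Survivin loss. Lgr6 had a log2 change of -0.44, with a 95% interval from -0.85 to -0.03 and adjusted p = 0.100, and Lrig1 one of 0.14, with an interval from -0.09 to 0.37. The median over the 7 markers was -0.44 and over all genes 0.16. After median-of-ratios rescaling the median of all genes was 0.02, and Lgr6 then passed (-0.58, adjusted p = 0.0467), with Lgr5 at 0.52 and Epcam at -0.92. The Lgr5 call was lost without replicate 2 of LOF (0.62, adjusted p = 0.0558) and without replicate 2 of the controls (0.38, adjusted p = 0.0513). With the Xist level as a covariate, only Plet1 (-2.84, adjusted p = 0.0252) and Epcam (-1.74, adjusted p = 0.0462) still passed, while Krt79 did not, at -1.63 (adjusted p = 0.148).

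With Survivin gain, GOF against Inv cells, Lgr6 and Plet1 rose while Krt79 and Lgr5 fell. Lgr6 was 2.69-fold and Plet1 1.99-fold higher, Krt79 3.98-fold and Lgr5 1.73-fold lower. Of the 7 markers 2 rose and 2 fell, where 15.3% of all genes changed, 6.87% higher and 8.4% lower. The count over all genes, 3359, moved with the libraries and the fit: it was 6249 without GOF replicate 1, 943 without Inv replicate 2, 1139 without Inv replicate 1 and 583 in a fit to only GOF and Inv. The log2 changes were 1.39 for Lgr6 (SE 0.19, adjusted p = 0.000927), 0.97 for Plet1 (SE 0.17, adjusted p = 0.00476), -2.00 for Krt79 (SE 0.15, adjusted p = 2.56e-05) and -0.79 for Lgr5 (SE 0.15, adjusted p = 0.00617). In all 4 the groups did not overlap, although the GOF libraries differed from each other 1.56-fold in Lgr6 and 1.48-fold in Plet1.

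Lrig1 (0.02, interval -0.21 to 0.25) and Epcam (-0.01, interval -0.31 to 0.29) did not pass between GOF and Inv cells (adjusted p = 0.937 and 0.973), and the intervals bound the difference. The median over the 7 markers was 0.02, beside -0.01 for all genes. Without GOF replicate 1 the 4 changes were 1.71 for Lgr6, 1.25 for Plet1, -1.92 for Krt79 and -0.84 for Lgr5, and without GOF replicate 2 they were 1.07, 0.69, -2.07 and -0.74, with all 4 past the threshold each time. Without Inv replicate 2, Plet1 (0.89, adjusted p = 0.0614) and Lgr5 (-0.75, adjusted p = 0.0696) lost their calls. With the Xist level as a covariate none of the 4 passed, and the sizes were 0.54 for Lgr6, 0.12 for Plet1, -1.94 for Krt79 and -0.84 for Lgr5. Plet1os did not pass (0.62, adjusted p = 0.0879).

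The loss and gain comparisons share no library, so the difference between their effects could be tested within the same limma fit. It passed for 4 of 7 markers, 1 upward and 3 downward, where it passed for 23.7% of all genes, 15.3% upward and 8.34% downward. The difference was downward for Plet1 (-2.69, SE 0.25, adjusted p = 4.80e-05) and Lgr6 (-1.83, SE 0.26, adjusted p = 0.000714). It was upward for Lgr5 (1.45, SE 0.21, adjusted p = 0.000776). For Lgr6 the change with loss was -0.44 and did not pass, and the change with gain was 1.39. Epcam differed by -0.77 (adjusted p = 0.0148), a call lost without replicate 2 of LOF, of Krt14 at 6 weeks or of Inv (adjusted p of 0.058, 0.0612 and 0.0647). Krt79 fell in both comparisons, and its effects differed by 0.28 with an interval from -0.20 to 0.76 (adjusted p = 0.390). The drivers and weeks of the 2 comparisons differ, and their part in these differences was not tested.

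At 8 weeks Krt14 cells held more of 5 of the 7 markers than Inv cells, where 19.6% of all genes changed, 8.18% higher and 11.4% lower. Lgr6 was 4.43-fold, Plet1 3.5-fold, Epcam 2.75-fold, Krt79 2.52-fold and Lrig1 2.35-fold higher. The log2 changes were 2.15 for Lgr6 (SE 0.19), 1.81 for Plet1 (SE 0.17), 1.46 for Epcam (SE 0.14), 1.33 for Krt79 (SE 0.15) and 1.23 for Lrig1 (SE 0.10), with adjusted p from 1.95e-05 to 0.000167 in limma. All 5 passed under every one of the 22 alternative settings tried. Lgr5 had a log2 change of 0.36 (interval 0.03 to 0.69, adjusted p = 0.127). It passed under 6 of the 22 alternatives, median-of-ratios rescaling among them (0.45, adjusted p = 0.0440). The median was 1.33 over the markers and -0.10 over all genes. Of 8 suprabasal epidermal genes, 5 were also higher and 0 lower in Krt14 cells (median 1.46). Ivl, the Involucrin transcript itself, was at 165 and 258 in Krt14 cells at 8 weeks and at 78 and 43 in Inv cells. The part of differentiation state in the marker differences was not tested.

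Between 6 and 8 weeks in Krt14 cells, Lrig1 rose 2.11-fold (log2 change 1.08, SE 0.10, adjusted p = 0.000560) and Krt79 1.55-fold (0.63, SE 0.15, adjusted p = 0.0424). These were 2 of 7 markers, where 4.88% of all genes changed, 4.02% higher and 0.855% lower. That count over all genes, 1073, was 77 without replicate 2 and 136 without replicate 1 of the 8-week group, 216 without replicate 2 of the 6-week group, and 2644 with library weights. Sebaceous gland genes rose in 8 of 10 cases in the same comparison (median 1.84), with Soat1 at 3075 and 2948 at 8 weeks against 614 and 610 at 6 weeks, and their part in the Lrig1 and Krt79 changes was not tested. Lrig1 passed under every alternative. The Krt79 call was lost in 9 of 22 alternatives, among them leaving out either library of either Krt14 group, with changes from 0.50 to 0.76, and median-of-ratios rescaling (0.49, adjusted p = 0.0902). Plet1 had a change of -0.62 (interval -1.01 to -0.24, adjusted p = 0.0686) and passed with limma-voom on recovered reads (-0.73, adjusted p = 0.0374). Lgr5, Lgr6 and Epcam gave 0.29, 0.39 and -0.18 and did not pass. The median of all genes was 0.14, and 0.00 after rescaling.

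GOF cells were also set against Krt14 cells at 8 weeks, the same libraries as in the driver comparison. These groups differ in driver, Krt14rtTA, Survivin state and Xist level, which cannot be told apart here. The 6 markers other than Cd34 were lower in GOF, where 27.7% of all genes changed, 15.2% higher and 12.5% lower. Krt79 was 10.0-fold lower (log2 change -3.33, SE 0.15, adjusted p = 1.64e-06), Epcam 2.73-fold, Lrig1 2.31-fold and Lgr5 2.21-fold. Plet1 was 1.76-fold lower (-0.84, SE 0.17, adjusted p = 0.00491) and Lgr6 1.65-fold lower (-0.76, SE 0.19, adjusted p = 0.0118). The Lgr6 call was lost without replicate 1 (-0.70, adjusted p = 0.0880) or replicate 2 (-0.82, adjusted p = 0.0530) of the Krt14 group. With the Xist level as a covariate Lgr5 (-1.21, adjusted p = 0.308), Lgr6 (-1.75, adjusted p = 0.177) and Plet1 (-1.82, adjusted p = 0.127) did not pass. Cd34 averaged 36.0 in GOF and 14.0 in Krt14 cells and did not pass (1.33, adjusted p = 0.453). The median was -1.15 over the markers and 0.09 over all genes.

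**Figure D4:**
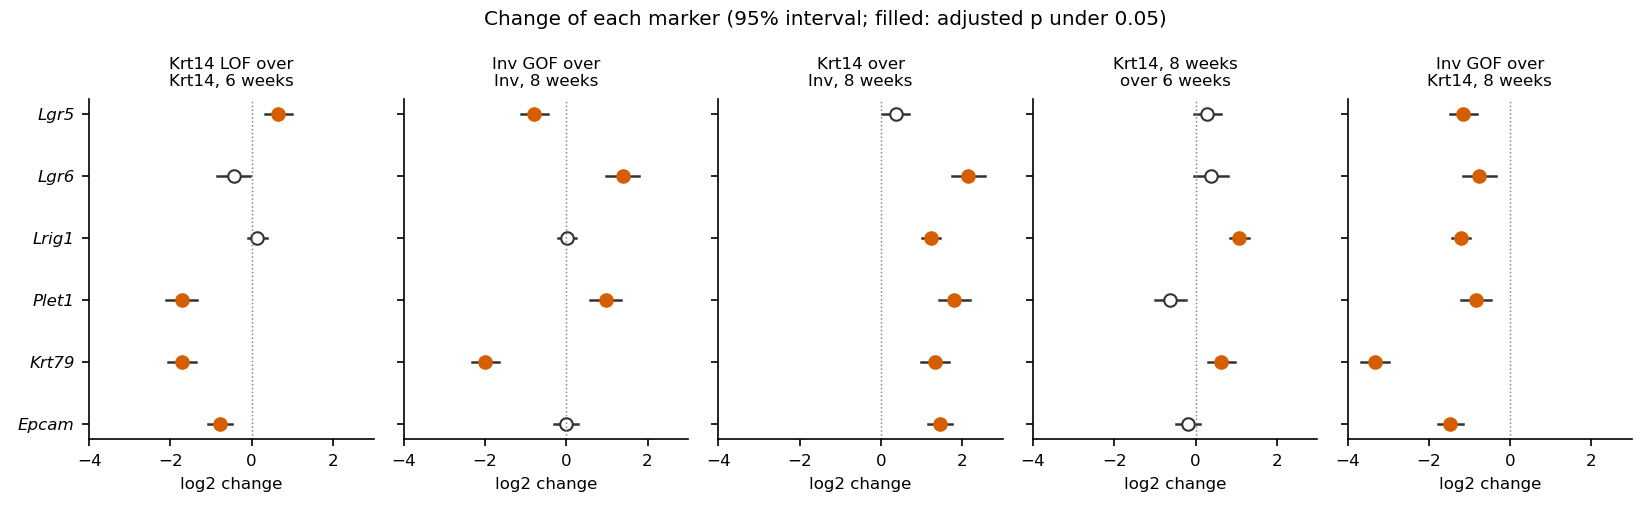
Log2 change (horizontal axis) of 6 markers in 5 comparisons, with 95% intervals from the limma fit; filled points have an adjusted p under 0.05, and n = 2 libraries a group. Lgr5 and Lgr6 lie on opposite sides of 0 with Survivin gain, and Krt79 lies at -1.71 with loss and -2.00 with gain.

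The LGR receptor genes were read in cells whose R-spondin transcripts were near the floor. Lgr4, the third R-spondin receptor, stood between 11278 and 16234 normalized counts in the 10 libraries. The ligand genes Rspo2, Rspo3 and Rspo4 never exceeded 3 and Rspo1 never exceeded 10. Lgr4 fell with Survivin gain, at 11987 and 11278 in GOF against 14723 and 15424 in Inv (log2 change -0.37, SE 0.10, adjusted p = 0.0313), and did not pass with loss (0.12, adjusted p = 0.420). Of 16 genes of R-spondin and Wnt receptor turnover, Lgr4 and the ligands included, 12 were tested. In these and the following lists, the shares of all genes called are 30.9% with loss and 15.3% with gain. With loss 6 rose and 2 fell (median 0.67), among them the Wnt feedback inhibitor Nkd1, at 427 and 273 in LOF against 55 and 39, and the Wnt target Tnfrsf19, at 4165 and 2997 against 495 and 380. With gain 1 rose and 2 fell (median -0.01), with Smoc2, a matricellular gene of Lgr5-positive stem cells, at 1229 and 874 in GOF against 2328 and 2428 in Inv.

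Of the close relatives of Lrig1, Lrig3 passed and Lrig2 did not. Lrig3 rose with loss, at 2347 and 2548 in LOF against 1672 and 1237 (log2 change 0.77, SE 0.14, adjusted p = 0.00231), and between 6 and 8 weeks (0.75, adjusted p = 0.0177). Lrig2 had adjusted p from 0.124 to 0.687 over the 6 comparisons. Of the 8 genes of this list, 2 rose with loss (Lrig3 and the EGF receptor gene Egfr, 0.41) and 2 rose with gain (Erbb2, 0.53, and Erbb3, 1.17), while Egfr fell with gain. The 2 of 8 with loss are below the 30.9% of all genes called, so that count is no result about the list. The list's median was 0.14 with loss and 0.13 with gain.

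The 9 genes listed with Epcam encode claudins, other junction or membrane proteins, a protease and its inhibitor. With loss 4 fell and 1 rose (median -0.23). Spint1, a membrane protease inhibitor, fell, at 687 and 562 in LOF against 1250 and 1199 in Krt14 cells at 6 weeks. The rise was that of Tspan8, at 33 and 23 in LOF against 3 and 6, the latter below the floors of 7.17 and 7.75. With gain 6 rose and 0 fell (median 0.44). In Krt14 against Inv cells at 8 weeks 7 rose and 0 fell (median 0.81), where 8.18% of all genes were higher. Both counts include Cldn7, which was near the floor. It was at 10 and 19 in GOF, 14 and 8 in Krt14 at 8 weeks and 0 and 3 in Inv. The claudin gene Cldn4 was at 56 and 102 in GOF against 12 and 14 in Inv.

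Among 8 other genes of the upper follicle, 4 fell and 0 rose in LOF (median -1.14): the follicle keratin Krt17, the activin inhibitor Fst, the defensin Defb6 and the regulator Prdm1. Fst was at 796 and 1078 in LOF against 3027 and 3905 (log2 change -1.89, SE 0.19) and Krt17 at 45093 and 35138 against 81236 and 105351 (-1.22, SE 0.25). With gain 1 rose, the protease inhibitor Cst6, at 563 and 1202 in GOF against 342 and 278 in Inv (1.41, SE 0.29), and 7 did not pass (median 0.28). Krt14 cells at 8 weeks exceeded Inv cells in 7 of 8 (median 1.96), where 8.18% of all genes were higher. Gata6, a transcription factor of the Krt79-positive duct lineage, was at 124 and 113 in LOF, 73 and 219 in GOF, 186 and 148 in Krt14 at 8 weeks, 58 and 109 at 6 weeks and 78 and 43 in Inv, and passed in none of the 5 pairs.

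The bulge and hair germ list moved both ways. Of 13 genes tested, 4 rose and 2 fell with loss (median 0.20), where 19.5% of all genes were higher and 11.4% lower. Postn, a matrix protein, was at 26945 and 35465 in LOF against 9697 and 12711 (1.48, SE 0.15), and Nfatc1, a transcription factor of quiescent bulge cells, at 3028 and 2154 against 8190 and 9191 (-1.76, SE 0.15). With gain 4 rose and 3 fell (median 0.41), where 15.3% of all genes changed, with Dkk3 at 753 and 1165 in GOF against 328 and 332 in Inv and the surface marker Cd200 at 246 and 318 against 540 and 628. Of 9 hair placode genes, 6 rose and 1 fell with loss (median 1.72), the morphogen Bmp2 standing at 781 and 675 in LOF against 36 and 31. With gain 0 rose and 2 fell (median -0.72).

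Sebaceous gland genes, whose cells lie next to the Lrig1 and Plet1 compartments, rose in 8 of 10 cases with loss (median 2.02) and fell in 9 of 10 with gain (median -1.88). They fell in 9 of 10 in Krt14 against Inv cells (median -2.31), where 11.4% of all genes were lower. They also rose in 8 of 10 between 6 and 8 weeks in Krt14 cells (median 1.84), where 4.88% of all genes changed. Soat1, which esterifies cholesterol, was at 2178 and 2891 in LOF against 614 and 610 in Krt14 at 6 weeks, and at 2008 and 1745 in GOF against 13750 and 14320 in Inv. The part of sebaceous cells in the marker changes was not tested.

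**Figure D5:**
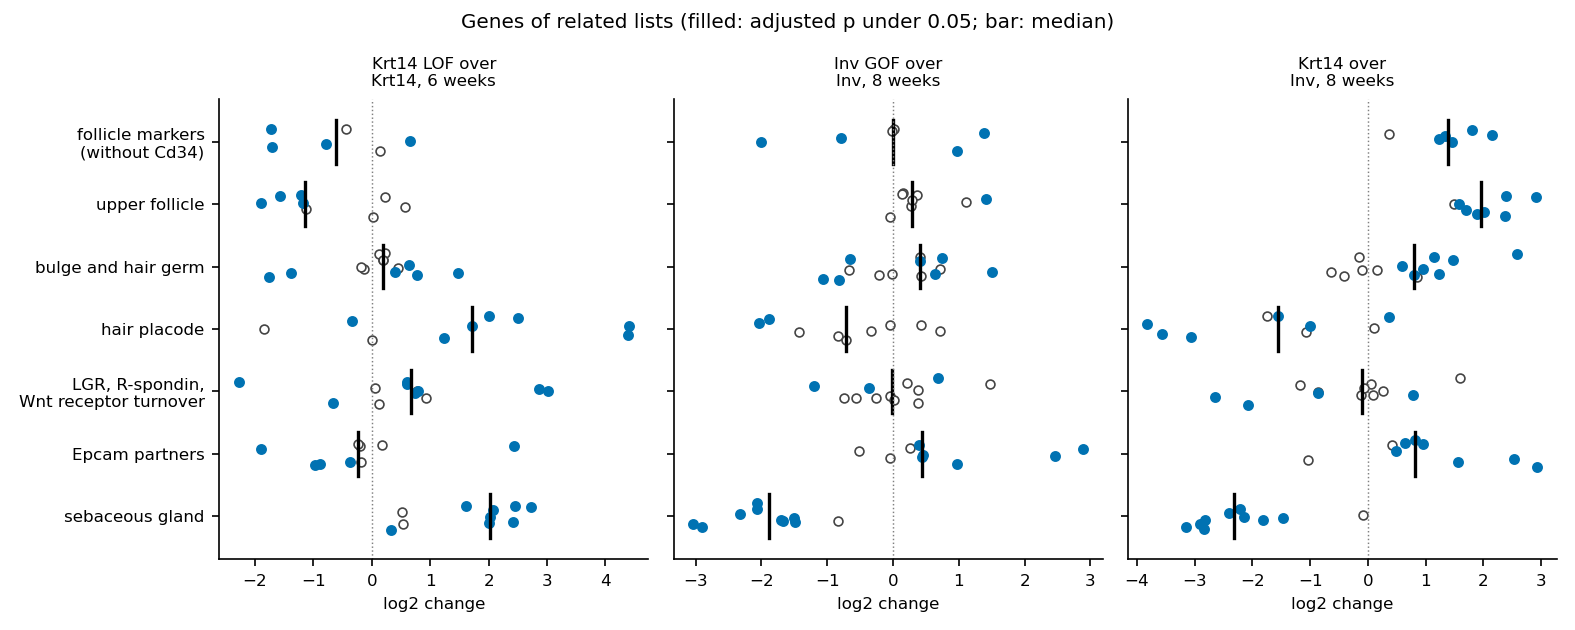
Log2 change (horizontal axis) of each tested gene of 6 related lists and of the follicle markers without Cd34 in 3 comparisons; filled points have an adjusted p under 0.05 and black bars are medians, with points spread vertically for legibility only. Upper follicle genes have a median of -1.14 with Survivin loss and 1.96 in Krt14 over Inv cells, and sebaceous genes lie to the right with loss and to the left with gain.

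For each marker, the genes with the most similar profile were found by the root mean square difference of centred log2 values over the 10 libraries, among 11983 genes. Plet1 was nearest to its antisense partner Plet1os (0.128), then to the phosphatase gene Dusp7 (0.182) and the transcription factor gene Ets1 (0.193). Epcam was nearest to Palmd (0.141), to Lima1 (0.142), which encodes an actin-binding protein, and to the cathepsin gene Ctsb (0.170). Lgr5 was nearest to the mitotic spindle gene Ska2 (0.171), to Aldh7a1 (0.190) and to Sall2 (0.203), and Lrig1 to the inflammasome adaptor gene Pycard (0.169), to Adgrl2 (0.201) and to Filip1l (0.237). Lgr6 was nearest to Nfatc2 (0.256), Tmc6 (0.278) and Cobll1 (0.286), and Krt79 to Rab6b (0.306), Pdzrn3 (0.383) and Bcas1 (0.420). No gene came nearer to Cd34 than Itgb7 (0.892), followed by Atp2a1 (0.923) and Tgm2 (1.03). The Cd34 profile rests on 0 to 20 reads a library and so holds much counting error, and these genes cannot be read as sharing its pattern. Among the markers themselves the nearest pair was Plet1 and Epcam (0.441), and Lgr5 was nearer to Lrig1 (0.520) than to its paralog Lgr6. The root mean square of the centred Lgr5 profile itself was 0.519. A gene without any change would thus have lain as near to Lgr5 as Lrig1 did.

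Markers of other cell types that the sort could hold ranged widely between lists. Of 5 mast cell genes, Cpa3, Mcpt4 and Ms4a2 were at 0 in all 10 libraries. Tpsb2 was at 8 and 6 in GOF, near the floors of 7.21 and 7.8, at 14 and 14 in Inv and at 0 in the other 6 libraries. On these low values it passed as higher in GOF than in Krt14 at 8 weeks and as lower in Krt14 at 8 weeks than in Inv. Cma1 was at 13 in Krt14 replicate 2 at 6 weeks and at 3 or less elsewhere. The 5 leukocyte genes summed to between 69 and 166. The Langerhans cell list summed to 563 to 1456 and the Merkel cell list to 94 to 449, with Krt20, Atoh1 and Isl1 never above the floor. Melanocyte genes summed to 2857 and 3000 in LOF against 874 and 920 in Krt14 at 6 weeks, to 1726 and 1939 in GOF against 2247 and 2378 in Inv, and to 1326 and 1483 in Krt14 at 8 weeks. The fibroblast list summed to between 1300 and 37659 and was nearly all Dcn, which was at 17993 and 18053 in LOF, 37402 and 14512 in GOF, 2235 and 1574 in Krt14 at 8 weeks, 2205 and 1163 at 6 weeks and 17515 and 19565 in Inv. Of its collagen genes, Col1a2 was at 647 and 1006 in LOF, 114 and 97 in GOF, 40 and 26 in Krt14 at 8 weeks, 137 and 19 at 6 weeks and 237 and 238 in Inv. Dcn and Col1a2, 2 of the 6 genes tested, rose with loss, where 19.5% of all genes were higher. Both were lower in Krt14 cells at 8 weeks than in Inv, where 11.4% of all genes were lower. Col1a1 stayed between 75 and 218 and Dpt at 3 or less. The part of these cells in the marker changes was not tested.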

How the data were processed

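RNA of 10 libraries was profiled. Per the submitters' processing notes, STAR aligned the reads to GRCm38 (mm10) and HTSeq counted them. Their versions, the annotation, the strand setting and the normalization method were not found in the sources used here. The deposited values are a normalized score (normalized counts, rounded up) that sums to between 20011195 and 20014054 in each library, and 99.3% to 99.9% of values below 20000 matched whole reads after this rounding. Floors cover counting error only, since no molecular identifiers separate molecules from PCR copies. Of 49671 gene IDs, 49326 matched GENCODE M21 (GRCm38), which gave positions and exon lengths.

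Genes with at least 10 in at least 2 libraries were taken to log2(value + 1) and fitted over the 5 groups in limma 3.58.1 (R 4.3.3; lmFit, contrasts, eBayes with trend). Residual degrees of freedom were 5, and the prior ones 5.91 at the median. Two-sided p-values were adjusted by Benjamini-Hochberg over all genes within each of 6 comparisons, with a threshold of 0.05. The method was tested on simulated data. The labels do not say that libraries came from separate animals, so the tests see only library-to-library spread, possibly technical, and no batch is given. Replicates differed beyond sampling noise and were not merged.

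The members, lists and tests were chosen with earlier results of these data known. Named were the members, the 3 most similar genes each (mean of at least 50), family relatives, and changed list genes with the smallest p, not all of which are printed. The result of 1 list gene is not reported here. Krt17, Gata6, Prdm1, Krt10, Lor, the genes named from other cell types, the R-spondin genes, Plet1os, Xist and Ddx3y were named after their values were seen. Tspan8 was also named after its values were seen. Promoters are from RefSeq (GRCm38.p6), and the motifs were chosen with the sequences in view. Alternatives varied the pseudocount (0.5, 5), filter (none, 50), scaling (median of ratios, quantile), fit, library weights, a replicate block, each library left out and limma-voom on recovered reads with TMM factors. The Xist covariate was added after seeing the data.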

Additional observations from a re-analysis of the deposited data

How the results depend on the processing

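The log2 changes of the 7 markers in 6 comparisons (42 results) were recomputed under up to 22 alternatives, 918 values in all. Of these, 869 kept their side of the threshold, 30 lost it, 19 gained it, and no called change turned its direction. The replicate block changed no call and left the counts of changed markers at 4 with loss, 4 with gain, 5 for Krt14 against Inv, 2 for 8 against 6 weeks, 6 for GOF against Krt14 and 4 for the difference of effects. Correlations of replicate 1 deviations between groups lay between -0.0542 and 0.0407, so same-numbered libraries did not deviate together over all genes. A correlation over all genes cannot show a pairing that acts on few of them. Leaving out each library in turn gave 3 to 5 changed markers with loss, 2 to 4 with gain (2 without Inv replicate 2), 5 to 6 for Krt14 against Inv, 1 to 3 for 8 against 6 weeks, 5 to 6 for GOF against Krt14 and 3 to 4 for the difference of effects. A group left with 1 library was assumed to vary like the others. For 8 against 6 weeks, the count was 1 without a filter and 4 in a fit to only those groups, where Lgr6 and Plet1 also passed. With the Xist covariate the counts were 2 with loss, 0 with gain and 3 for GOF against Krt14. Xist was high in all 4 Survivin-altered libraries and low in the other 6, so this covariate largely repeats the groups. The SE of Plet1 with loss was 0.58 with it and 0.17 without it. In a fit to only GOF and Inv, Plet1 lost its call (0.97, adjusted p = 0.0733), and in a fit to only GOF and Krt14, Lgr6 lost its call (-0.76, adjusted p = 0.0602), as it did without a filter (adjusted p = 0.0523). The cause of the remaining losses was not tested. Counts over all genes moved more. For 8 against 6 weeks (1073) they ran from 77 to 2487 when 1 library was left out, and were 536 without a filter, 468 after quantile normalization, 2366 in a fit to only those groups, 2644 with library weights and 1780 with the Xist covariate. With gain (3359) they ran from 943 to 6249 with 1 library left out, and were 583 in a fit to only those groups and 40 with the Xist covariate. With loss (6805) they ran from 3772 to 8532 and were 941 with the Xist covariate. For Krt14 against Inv (4309) they ran from 1910 to 6029, for GOF against Krt14 (6098) from 3302 to 7328, with 202 under the Xist covariate, and for the difference of effects (5209) from 3250 to 7305. Depth limits only Cd34, at 0 to 20 reads a library.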

Other observations

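Hedgehog target genes, read in the same cells as the follicle markers, rose in 7 of 8 cases with Survivin loss and fell in 0 (median log2 change 1.19). With Survivin gain 1 rose and 1 fell (median -0.61). The GOF libraries differed here: the list summed to 66056 in GOF replicate 1 and 34563 in replicate 2, against 68128 and 65457 in Inv. Replicate 1 thus lay near Inv. Hhip, which binds Hedgehog ligands, stood at 8169 and 10523 in LOF against 383 and 530 in Krt14 cells at 6 weeks, and at 2941 and 799 in GOF against 4294 and 4555 in Inv. The transcription factor gene Gli2 rose with gain, at 5418 and 4059 in GOF against 3422 and 3191 in Inv.

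Among basal epidermal genes, with loss 1 of 8 rose and 1 fell (median -0.18), a share below the 30.9% of all genes called, with Col17a1 of the hemidesmosome at 57120 and 50377 in LOF against 30942 and 34339, and Trp63, the basal transcription factor gene, at 22636 and 27389 against 31859 and 34933. With gain 3 of 8 rose and 0 fell (median 0.41), among them the integrin gene Itgb4, at 12338 and 13002 in GOF against 8155 and 6795 in Inv. Of 8 suprabasal genes, 3 rose and 4 fell with loss (median -0.83), where 30.9% of all genes changed. The keratin gene Krt10 (9438 and 6692 in LOF against 2972 and 5741), Lor (119 and 68 against 15 and 44) and Dsg1a (16724 and 13490 against 5945 and 4946) rose. Sbsn (769 and 634 against 1935 and 2177), Ivl (35 and 32 against 172 and 189), Flg and Krtdap fell. With gain 0 rose and 1 fell (median 0.52), the fall being that of the desmosomal gene Dsg1a, at 10741 and 4607 in GOF against 13322 and 15122 in Inv.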
